A study of Mus musculus with 9 samples.

Results

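The type I interferon genes on the array are Ifnb1, which encodes interferon beta, and 6 genes of the interferon alpha family, Ifna1, Ifna2, Ifna4, Ifna5, Ifna9 and Ifnab. A probe set, the group of array probes that reports on 1 transcript, was included when the platform annotation gave it a single gene symbol and that symbol was one of these 7. This gave 7 probe sets, 1 per gene, of 45037 non-control probe sets and 18193 named genes on the array. Messenger RNA was measured on 9 Affymetrix mouse arrays, 3 per group, in dendritic cells that had been grown from bone marrow of 129/SvEv mice with the growth factor GM-CSF for 9 to 12 days. The first group, STING tumor DNA, was STING knockout cells given purified DNA from tumor cells. The second, WT tumor DNA, was wild-type cells given such DNA, and the third, WT media, was wild-type cells without stimulation. DNA-treated cells took up the DNA over 7 h with the help of a lipid reagent (Lipofectamin), and 6 ug of total RNA was labelled with biotin. Knockout cells without DNA were not analysed here, and neither were cells given only the reagent, so DNA and reagent cannot be told apart and the knockout's own baseline is not known. Whether the arrays of a group stand for different mice or cultures is not stated in the labels. The p-values therefore reflect the spread among these arrays, and that spread may be technical.

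Type I interferons are secreted proteins that warn neighbouring cells of infection. DNA in the cytosol is detected by the enzyme cGAS, whose product binds STING, and STING then recruits the kinase TBK1, which activates the transcription factor IRF3. IRF3 and NF-kappaB switch on Ifnb1, and interferon beta acting through its receptor raises IRF7, a transcription factor on which most interferon alpha genes depend. All type I interferons bind the same receptor, made of IFNAR1 and IFNAR2, and induce a shared set of antiviral genes.

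All 7 genes lie in the interferon cluster on mouse chromosome 4. Their order along the chromosome, by the coordinates of their promoters in RefSeq's GRCm38.p6 annotation, is Ifnb1, Ifna9, Ifna2, Ifnab, Ifna5, Ifna4 and Ifna1. The 96 bases that end at the TATA-type element of each promoter are shown because this is where the known binding sites of IRF and NF-kappaB proteins lie in interferon genes. They are written 5′ to 3′ on the strand of the gene, and the coordinates are chr4:88522870-88522965 (minus strand) for Ifnb1, chr4:88592479-88592574 (minus) for Ifna9, chr4:88683871-88683966 (minus) for Ifna2, chr4:88691321-88691416 (minus) for Ifnab, chr4:88835336-88835431 (plus) for Ifna5, chr4:88841675-88841770 (plus) for Ifna4 and chr4:88849898-88849993 (plus) for Ifna1. Capitals mark the final TATA-type element, every match to AAANNGAAA, the spaced GAAA repeat that IRF proteins recognise, and in Ifnb1 also the match to GGANNTTCC, an NF-kappaB type motif.
Ifnb1: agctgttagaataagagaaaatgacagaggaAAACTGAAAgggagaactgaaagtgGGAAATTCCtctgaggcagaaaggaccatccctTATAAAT
Ifna2: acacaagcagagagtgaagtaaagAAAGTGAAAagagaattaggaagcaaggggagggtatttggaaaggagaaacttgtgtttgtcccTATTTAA
Ifna4: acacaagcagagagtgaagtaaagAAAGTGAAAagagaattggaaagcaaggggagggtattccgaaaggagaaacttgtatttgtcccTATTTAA
Ifna1: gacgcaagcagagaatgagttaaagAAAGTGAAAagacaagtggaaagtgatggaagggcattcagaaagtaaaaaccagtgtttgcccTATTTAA
Ifna5: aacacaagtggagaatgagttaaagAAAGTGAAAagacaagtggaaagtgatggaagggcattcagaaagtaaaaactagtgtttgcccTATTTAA
Ifna9: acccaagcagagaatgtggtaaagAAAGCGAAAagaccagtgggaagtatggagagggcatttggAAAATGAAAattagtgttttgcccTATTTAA
Ifnab: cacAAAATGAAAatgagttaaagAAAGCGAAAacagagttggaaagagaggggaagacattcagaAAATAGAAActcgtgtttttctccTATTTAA

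The motifs were searched on both strands of the 300 bases from 250 before to 50 after each annotated start. AAANNGAAA was found in 7 of 7 interferon windows and in 10.6% of all 32851 promoter windows of the table. The window held 3 matches in Ifna4 and Ifnab, 2 in Ifna2 and Ifna9, and 1 in Ifnb1, Ifna1 and Ifna5. In Ifna4 and Ifna2 only 1 match lies in the 96 bases shown, and the others lie further upstream. GGANNTTCC was found in 1 of the 7, Ifnb1, and in 4.26% of all windows. The box TATAAA was likewise found in Ifnb1 alone, against 13.6% of all windows, and its second match there, outside the 96 bases, lay further upstream. The other 6 held TATTTAA, an element chosen after the sequences had been read and present in 4.51% of all windows. TGACNTNA, an AP-1 and ATF type motif, was in 0 of the 7 and in 16.3% of all windows. The TATA-type element began 82 bases before the annotated start in Ifnb1 and 52 to 100 bases before it in the alpha genes. In Ifna1, Ifna2, Ifna5 and Ifna9 the annotated start is the ATG codon, so distances to the true start of transcription are shorter. A match is a description of these letters and not a measured binding site.

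Among the alpha genes the 96 bases were 72.4% to 94.8% identical in global alignments (median 78.6% over 15 pairs), and each alpha gene was 52.0% to 56.6% identical to Ifnb1. Ifna2 and Ifna4 formed one of the 2 closest pairs, with 5 differing columns of 96. Ifna1 and Ifna5 formed the other, also with 5 differing columns of 96.

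Ifnb1 (probe set 1422305_at) read 43.3, 62.5 and 48.8 signal units on STING tumor DNA arrays 1, 2 and 3, against 21593, 5213 and 10275 on WT tumor DNA arrays and 50.2, 47.3 and 72.4 on WT media arrays. Every wild-type array with DNA lay far above the other 6, while STING knockout arrays with DNA and wild-type media arrays overlapped. Signals are linear MAS5 intensities, and differences were fitted on log2(signal + 16) with limma over all 9 arrays and all 12586 genes tested, with Benjamini-Hochberg adjusted p-values and a gene called below 0.05. On that scale WT tumor DNA exceeded WT media by 7.19 ± 0.42 (SE, n = 3 per group, adjusted p = 3.68e-05), the largest rise of all genes tested. STING tumor DNA lay below WT tumor DNA by a difference of -7.29 ± 0.42 (adjusted p = 1.48e-05). Between STING tumor DNA and WT media the difference was -0.10, with a 95% confidence interval of -1.04 to 0.84 (adjusted p = 0.988). In such bulk samples fewer cells that make a transcript cannot be told apart from less transcript per cell.

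**Figure D1:**
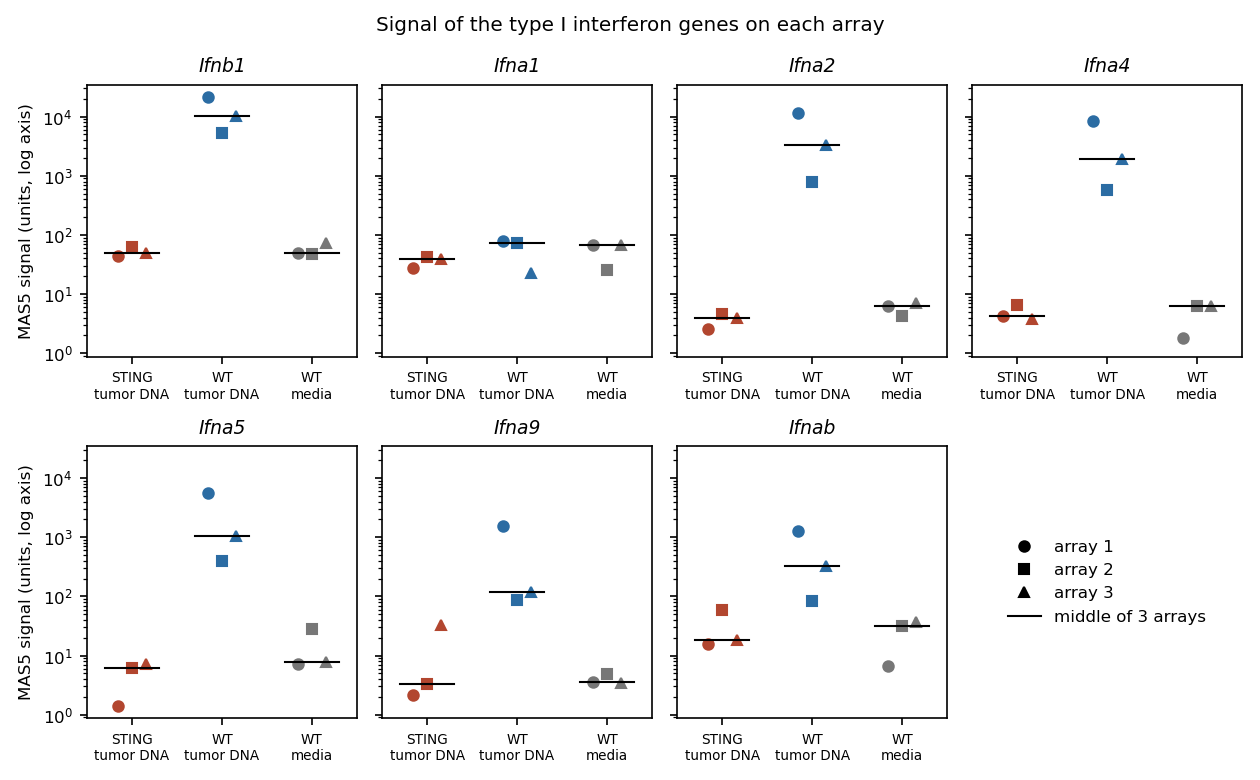
MAS5 signal (log axis) of each type I interferon gene on each of the 9 arrays, with 3 arrays per group, marker shapes for the array number and a line at the middle of the 3. In 6 genes the 3 WT tumor DNA arrays lie above all others in the order 1, 3, 2 from high to low, and in Ifna1 the 3 groups overlap. Among all genes tested, WT tumor DNA was apart from WT media, in either direction, in 46.4% and from STING tumor DNA in 46%.

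Ifna2 and Ifna4, one of the closest pairs by promoter stretch, had the next largest rises. Ifna2 (1423028_at) read 2.53, 4.63 and 3.86 on STING tumor DNA arrays, against 11488, 787 and 3286 on WT tumor DNA arrays and 6.35, 4.18 and 7.06 on WT media arrays. The 6 arrays outside WT tumor DNA were all near the bottom of the scale, between the 6.88 and 15.1 percentiles of their own array's probe sets. Ifna2 was higher in WT tumor DNA than in WT media by 7.16 ± 0.73 (limma adjusted p = 0.000325) and differed by -7.31 ± 0.73 between STING tumor DNA and WT tumor DNA (adjusted p = 0.000199). STING tumor DNA and WT media differed by -0.15 (confidence interval -1.79 to 1.49, adjusted p = 0.989).

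Ifna4 (1422408_at), which in mouse is known as an alpha gene induced early alongside Ifnb1, read 4.18, 6.61 and 3.83 on STING tumor DNA arrays, against 8404, 568 and 1910 on WT tumor DNA arrays and 1.80, 6.28 and 6.32 on WT media arrays. No WT tumor DNA array came near another group, although the highest read 14.8 times the lowest. The difference was 6.68 ± 0.74 for WT tumor DNA over WT media (limma adjusted p = 0.000423) and -6.67 ± 0.74 for STING tumor DNA against WT tumor DNA (adjusted p = 0.000306). It was 0.01 between STING tumor DNA and WT media (confidence interval -1.65 to 1.67, adjusted p = 0.998).

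Ifna5 (1450614_x_at) read 1.40, 6.20 and 7.30 on STING tumor DNA arrays, against 5583, 390 and 1032 on WT tumor DNA arrays and 7.24, 28.5 and 7.71 on WT media arrays. WT tumor DNA was again apart from both other groups, which overlapped. Ifna5 rose by 5.52 ± 0.76 in WT tumor DNA over WT media (limma adjusted p = 0.000975), and STING tumor DNA differed from WT tumor DNA by -6.00 ± 0.76 (adjusted p = 0.000563). The STING tumor DNA and WT media groups differed by -0.48 (confidence interval -2.19 to 1.22, adjusted p = 0.972).

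Ifna9 and Ifnab were called with smaller differences and wider spread. Ifna9 (1422406_at) read 2.11, 3.24 and 32.7 on STING tumor DNA arrays, against 1523, 85.9 and 117 on WT tumor DNA arrays and 3.61, 4.79 and 3.44 on WT media arrays. WT tumor DNA array 1 stood far above its 2 companions, and STING tumor DNA array 3 stood above its own. The difference was 3.79 ± 0.88 for WT tumor DNA over WT media (limma adjusted p = 0.00959) and -3.42 ± 0.88 for STING tumor DNA against WT tumor DNA (adjusted p = 0.0154). The first call was lost without the arrays numbered 3 (adjusted p = 0.0598), and the second without the arrays numbered 3 (0.0593) or without STING tumor DNA array 2 (0.0506). Without the arrays numbered 1 the second difference was -1.93, and without WT tumor DNA array 1 it was -2.18.

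Ifnab (1450613_x_at) read 15.7, 59.0 and 18.5 on STING tumor DNA arrays, against 1268, 82.3 and 332 on WT tumor DNA arrays and 6.54, 31.1 and 36.4 on WT media arrays. WT tumor DNA did not overlap either other group, but its array 2 (82.3) was close to STING tumor DNA array 2 (59.0). STING tumor DNA and WT media overlapped. Ifnab was higher in WT tumor DNA than in WT media by 3.21 ± 0.80 (limma adjusted p = 0.0125) and differed by -3.02 ± 0.80 between STING tumor DNA and WT tumor DNA (adjusted p = 0.0167). Without the arrays numbered 1 the rise was 1.90 (adjusted p = 0.0736), and without those numbered 3 its adjusted p was 0.1. Leaving out number 1 gave -1.86 for STING tumor DNA against WT tumor DNA (adjusted p = 0.0759), a call also lost without number 3 (0.157) or without STING tumor DNA array 3 (0.0563). Between STING tumor DNA and WT media, Ifna9 differed by 0.37 (adjusted p = 0.977) and Ifnab by 0.19 (adjusted p = 0.988).

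Ifna1 (1450564_x_at) did not pass the test in any comparison. It read 27.8, 43.0 and 39.7 on STING tumor DNA arrays, against 78.0, 73.7 and 22.5 on WT tumor DNA arrays and 68.5, 25.1 and 67.8 on WT media arrays. The 3 groups overlapped. The difference was 0.05 ± 0.43 for WT tumor DNA against WT media (confidence interval -0.90 to 1.0, limma adjusted p = 0.941), -0.39 for STING tumor DNA against WT tumor DNA (interval -1.34 to 0.56, adjusted p = 0.523) and -0.34 for STING tumor DNA against WT media (interval -1.29 to 0.61, adjusted p = 0.961). Its promoter stretch differs from that of Ifna5 in 5 columns, yet the interval for Ifna1 and that for Ifna5 (3.82 to 7.23) in WT tumor DNA over WT media do not meet. The difference between the 2 genes was not tested itself.

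**Figure D2:**
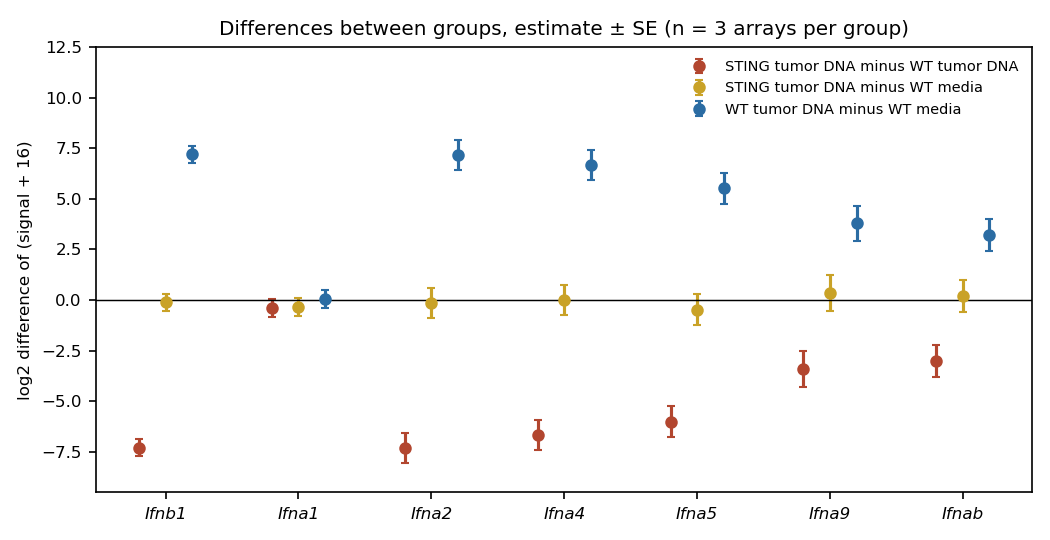
Fitted log2 difference ± SE (n = 3 arrays per group) of each type I interferon gene in the 3 comparisons. Differences of STING tumor DNA against WT tumor DNA mirror those of WT tumor DNA over WT media, and those of STING tumor DNA against WT media lie between -0.48 and 0.37. The comparisons share arrays.

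Of the 7 genes, 6 were called higher and 0 lower in WT tumor DNA than in WT media, beside 9.94% of all genes tested called higher and 23.6% called lower. The members' median difference was 5.52, and that of all genes tested was -0.20. These groups did not overlap in 6 of the 7, beside 46.4% of all genes in either direction. Ranked by the size of the rise among 12586 genes, Ifnb1 was 1, Ifna2 was 2, Ifna4 was 3, Ifna5 was 5, Ifna9 was 26 and Ifnab was 54. Between STING tumor DNA and WT tumor DNA, which shares the wild-type DNA arrays, 0 were called higher and 6 lower, beside 21.8% and 9.73% of all genes. The members' median was -6.00, against 0.20 for all genes. Here too the groups did not overlap in 6 of the 7, beside 46% of all genes. Between STING tumor DNA and WT media 0 of 7 were called either way by limma, and 0 had an unadjusted p below 0.05, beside 0.167% of all genes called higher and 0.262% called lower. In each of the first 2 comparisons 4 of the 6 calls were left without the arrays numbered 3. All 7 probe sets passed the filter on low signals, but only Ifnb1 and Ifna1 would have passed on the STING tumor DNA or the WT media arrays alone. The other 5 passed through the WT tumor DNA arrays, so for them a difference was built into the selection and these counts are a description.

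The sizes of the rises depend on the constant added before the logarithm wherever the lower group is near the floor. With constants of 1 and 64 in place of 16, the difference of WT tumor DNA over WT media was 7.54 and 6.46 for Ifnb1, 8.84 and 5.52 for Ifna2, 8.62 and 5.0 for Ifna4, 6.67 and 4.18 for Ifna5, and 3.98 and 2.28 for Ifnab. Ifna9 was 2.37 with 64 and fell under the filter with 1. Among the genes that rose and were tested with all 3 constants, Ifnb1 and Ifnab moved less than Ifna2, Ifna4 and Ifna5. The order changed too, since with 1 both Ifna2 and Ifna4 exceeded Ifnb1. Detection calls were not used, and signals this low may be background, so none of these is a measured fold.

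**Figure D3:**
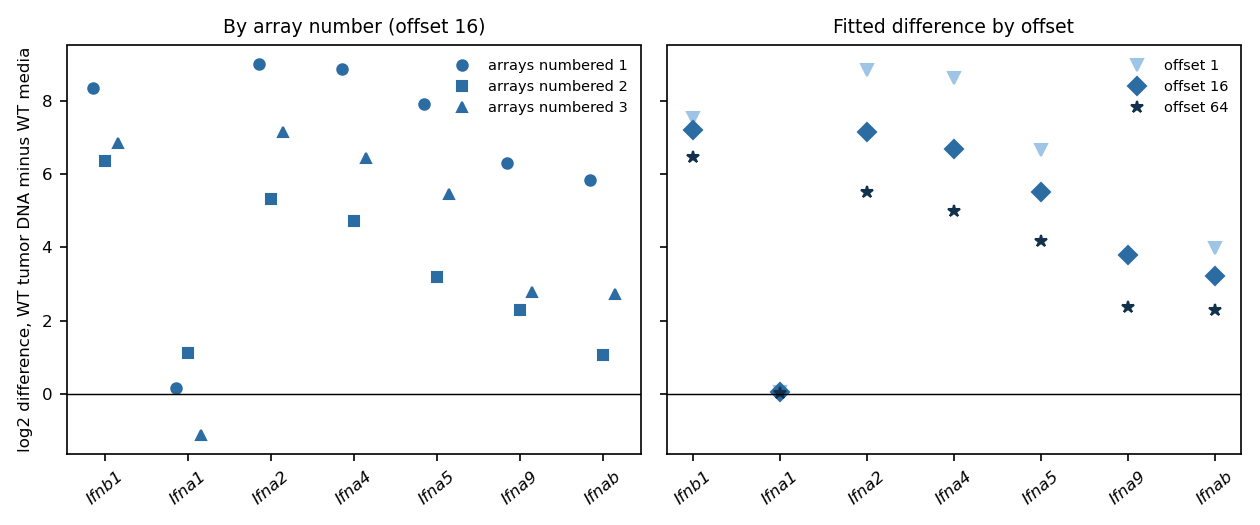
Log2 difference of WT tumor DNA minus WT media for each type I interferon gene, left for arrays of the same number (offset 16) and right as fitted with offsets of 1, 16 and 64 added to the signal. Arrays numbered 1 give the largest value in the 6 genes that rose, and the offset moves Ifna2 and Ifna4 most.

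The wild-type arrays with DNA differed widely among themselves in the interferon genes that rose. The highest of the 3 WT tumor DNA signals was 4.14 times the lowest for Ifnb1, 14.6 times for Ifna2, 14.8 times for Ifna4 and 14.3 times for Ifna5. It was 15.4 times the lowest for Ifnab and 17.7 times for Ifna9. For Ifna1, which did not rise, the ratio was 3.47. For 16 interferon-stimulated genes the same ratio was between 1.03 and 1.45, but their signals reached 33300 where the highest signal of each of the 9 arrays was between 28928 and 42125, and the part of a ceiling in this narrow range was not tested. Cxcl9, a chemokine gene that interferons also induce, had a ratio of 2.82. In all 6 genes that rose, array 1 read highest and array 2 lowest. Between arrays of the same number, WT tumor DNA exceeded WT media in Ifnb1 by 8.35 for number 1, 6.37 for number 2 and 6.86 for number 3, and in Ifna5 by 7.91, 3.19 and 5.47. The number-1 arrays also differed in other measures. The summed signal of 5 neutrophil markers on the array was 2490 to 5800 in STING tumor DNA, 3710 to 24400 in WT tumor DNA and 2250 to 18200 in WT media, highest on array 1 of each group, with Ngp and Camp, neutrophil granule genes, giving most of it. The spiked hybridisation control BioB gave 350.3 to 465 units for number 1, against 112 to 170.2 for numbers 2 and 3. Summed signals of fibroblast, macrophage and dendritic cell markers were also highest on array 1 of each group, and those of B cell markers on array 2. On WT tumor DNA arrays 1, 2 and 3 the fibroblast sums were 4500, 799 and 679. The B cell sums on these arrays were 414, 2410 and 521. The part of any of these in the interferon values was not tested.

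Markers of dendritic cells and of macrophages were both abundant. Itgax, the integrin CD11c, read 5267 to 6085 in STING tumor DNA, 5885 to 6174 in WT tumor DNA and 4108 to 5939 in WT media, while Flt3 stayed at 55.1 or below on all arrays. Zbtb46, a transcription factor of classical dendritic cells, read only 103 to 226 in STING tumor DNA, 54.1 to 127 in WT tumor DNA and 54.5 to 116 in WT media. Batf3, another such factor, read 326 to 444 in STING tumor DNA, 114 to 204 in WT tumor DNA and 302 to 457 in WT media, and was lower in WT tumor DNA than in WT media (-1.17 ± 0.25, limma adjusted p = 0.00606). Ccr7 went the other way, with 2347 to 3161 in STING tumor DNA, 2847 to 6603 in WT tumor DNA and 1181 to 2189 in WT media. Of 8 tested dendritic cell markers, 1 was called higher and 1 lower in WT tumor DNA than in WT media. The shares of all genes were 9.94% higher and 23.6% lower. The summed signal of 7 macrophage markers was 40700 to 68000 in STING tumor DNA, 42800 to 80700 in WT tumor DNA and 49600 to 80800 in WT media, and Csf1r, the receptor for M-CSF, read 18290 or more on every array. Of the 7, Cd163 and Marco were called lower in WT tumor DNA than in WT media and the other 5 were not called. The part of such cells in the interferon values was not tested. Plasmacytoid dendritic cells are the cell type best known for making interferon alpha. The summed signal of their 11 listed markers was 4570 to 8820 in STING tumor DNA, 23000 to 28100 in WT tumor DNA and 7330 to 9700 in WT media. Of 10 tested markers, 3 were called higher in WT tumor DNA than in WT media, namely Bst2, Tcf4 and Tlr7, beside 9.94% of all genes. The other 7 were not called, and the median over the 10 was 0.34. Bst2, itself an interferon-induced gene, gave most of the sum in WT tumor DNA (15041 to 18984, against 2027 to 5111 in STING tumor DNA and 3715 to 5917 in WT media). The defining surface marker Siglech read 71.9, 61.6 and 85.9 in STING tumor DNA, 10.4, 52.1 and 28.1 in WT tumor DNA, and 58.7, 22.4 and 97.5 in WT media, so it was not raised with the interferon genes. Klk1, another of the listed markers, read 122 to 229 in STING tumor DNA, 62.8 to 154 in WT tumor DNA and 133 to 199 in WT media. Ccr9 read 44.4 or below on every array.

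Other interferon genes were measured too. Of 14 listed, 3 had a probe set with a single symbol. Ifnz, an interferon zeta gene, read 60.02, 102 and 122 in STING tumor DNA, 83.4, 90.9 and 159 in WT tumor DNA and 59.7, 94.9 and 80.9 in WT media, and was not called (0.40 ± 0.32 for WT tumor DNA over WT media, limma adjusted p = 0.369). Ifna11 and Ifng did not pass the filter on low signals. Ifna11 read 9.07 to 31.5 over the 9 arrays with no separation of groups. Ifng, the type II interferon made chiefly by T and NK cells, read 1.80, 5.48 and 1.67 in STING tumor DNA, 174, 65.7 and 44.0 in WT tumor DNA, and 3.03, 3.86 and 22.5 in WT media. Some markers of those cells moved with it and others did not. The summed signal of 8 was 282 to 381 in STING tumor DNA, 1150 to 1990 in WT tumor DNA and 245 to 374 in WT media. Of 4 tested, Klrk1, Cd247 and Gzmb were called higher in WT tumor DNA than in WT media and lower in STING tumor DNA than in WT tumor DNA. The shares of all genes called so were 9.94% and 9.73%. Gzmb passed the filter on low signals only through the WT tumor DNA arrays. For it a difference was built into the selection, so its calls are a description. The remaining gene, Prf1, was called in neither comparison. It read 62.5 to 87.9 in STING tumor DNA, 44.3 to 74.1 in WT tumor DNA and 41.6 to 56.1 in WT media. Klrk1, the receptor NKG2D, gave most of the sum in WT tumor DNA, with 81.9, 105 and 96.8 in STING tumor DNA, 1438, 1234 and 762 in WT tumor DNA, and 100.3, 82.9 and 62.5 in WT media. Cd3e, Cd3g and Cd3d, which define T cells, read 42.5 or below on every array, and the NK cell receptor gene Ncr1 read 57.1 or below. The part of such cells in the interferon values was not tested.

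Upstream of the interferon genes, the knockout was visible in its target. Sting1 read 246, 336 and 327 in STING tumor DNA, 2258, 1061 and 1158 in WT tumor DNA, and 1524, 1081 and 646 in WT media. The difference between STING tumor DNA and WT tumor DNA was -2.17 ± 0.35 (limma adjusted p = 0.00163). It is not known whether this probe set covers the sequence altered in the knockout. Of 14 tested genes for the induction of interferon, 6 were higher and 2 lower in WT tumor DNA than in WT media, and 2 were higher and 6 lower in STING tumor DNA than in WT tumor DNA, with medians of 0.41 and -0.38. The 6 lower genes of the second comparison include Sting1, the gene targeted by the knockout itself. For all genes tested the shares were 9.94% higher and 23.6% lower in the first comparison and 21.8% higher and 9.73% lower in the second, so the 2 lower and the 2 higher genes make up a smaller share than among all genes. Between STING tumor DNA and WT media 0 were called by limma, beside 0.167% of all genes called higher and 0.262% lower. An unadjusted limma p below 0.05 was found in 3, a level whose share of all genes is not given here. Sting1 differed between STING tumor DNA and WT media by -1.72 ± 0.35 (limma adjusted p = 0.0938) without overlap of the groups, as did 13.8% of all genes tested. With the replicate number as a block it was called (adjusted p = 0.0319).

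Irf7, which encodes the transcription factor for most alpha genes, changed most among them. It read 2002, 427 and 852 in STING tumor DNA, 20973, 17970.4 and 15643 in WT tumor DNA, and 1955, 1979 and 2453 in WT media. The groups with and without DNA in wild type were wide apart, by 3.08 ± 0.43 (limma adjusted p = 0.00101), and STING tumor DNA differed from WT tumor DNA by -4.30 ± 0.43 (adjusted p = 0.000198). Tbk1, the kinase downstream of STING, rose by 1.16 ± 0.15 in WT tumor DNA over WT media (adjusted p = 0.000788). Cgas, the DNA sensor, rose by 1.08 ± 0.23 (adjusted p = 0.00643), and Irf5, another interferon regulatory factor, by 0.74 ± 0.14 (adjusted p = 0.0037), a call lost when probe sets of a gene were averaged (0.0728).

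Irf3 went the other way. It read 1259, 1081 and 1087 in STING tumor DNA, 705 to 837 in WT tumor DNA and 1069 to 1366 in WT media, a difference of -0.57 ± 0.16 for WT tumor DNA against WT media (limma adjusted p = 0.0201). This call depended on the scaling, with an adjusted p of 0.0924 after quantile normalization and 0.219 after median centring. The gene's activation is by phosphorylation of its protein, which arrays do not measure.

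The receptor genes moved little beside the interferons. Ifnar1 read 2621, 2237 and 2323 in STING tumor DNA, 3119.7 to 3969.7 in WT tumor DNA and 2454 to 2774 in WT media, with a rise of 0.44 ± 0.14 in WT tumor DNA over WT media (limma adjusted p = 0.0331). The call was lost in 12 of 24 alternatives, where the difference was 0.30 to 0.48 and the adjusted p 0.0514 to 0.254. Ifnar2 differed by 0.08 ± 0.18 (adjusted p = 0.749). In STING tumor DNA against WT tumor DNA it differed by -0.50 (adjusted p = 0.0548, and 0.0071 with the replicate block). Stat2, part of the factor that carries the signal to the nucleus, rose by 2.18 ± 0.29 (adjusted p = 0.000844), and Tyk2, the kinase bound to IFNAR1, by 1.10 ± 0.22 (adjusted p = 0.00489). Irf9, a DNA-binding partner of STAT2, differed by 0.63 ± 0.26 (adjusted p = 0.0836). Of 6 tested genes of this list, 3 were higher and 0 lower in WT tumor DNA than in WT media, beside 9.94% and 23.6% of all genes. In STING tumor DNA against WT tumor DNA 0 were higher and 4 lower, beside 21.8% and 9.73%. Between STING tumor DNA and WT media 0 were called by limma, beside 0.167% called higher and 0.262% lower. An unadjusted limma p below 0.05 was found there in 3, a level whose share of all genes is not given here. The medians in the first 2 comparisons were 0.54 and -0.90.

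Of 3 feedback genes, which restrain interferon signalling, 2 were called higher in WT tumor DNA than in WT media, beside 9.94% of all genes. Socs1 read 99.6, 210.3 and 208 in STING tumor DNA, 2534, 2017 and 2552 in WT tumor DNA, and 92.6, 156 and 322 in WT media. Its difference was 3.68 ± 0.40 for WT tumor DNA over WT media (limma adjusted p = 0.000403) and -3.72 ± 0.40 for STING tumor DNA against WT tumor DNA (adjusted p = 0.000267). Usp18, a protease that also blocks signalling at IFNAR2, rose by 2.26 ± 0.52 (adjusted p = 0.00881). Socs3 differed by 2.03 ± 0.81 (adjusted p = 0.0816), and with the replicate number as a block it was called (adjusted p = 0.00616). In STING tumor DNA against WT tumor DNA its difference was -1.31 (adjusted p = 0.253, and 0.0425 with the block).

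Interferon-stimulated genes are named for their induction by interferon. Of 16 tested, 13 were called higher in WT tumor DNA than in WT media and 0 lower, with a median of 2.25. The shares of all genes were 9.94% higher and 23.6% lower. Whether secreted interferon raised these genes here was not tested. Oasl1, which in mouse restrains translation of Irf7, read 1343, 358 and 491 in STING tumor DNA, 22126, 20525 and 19057 in WT tumor DNA, and 1455, 1298 and 1128 in WT media. It rose by 3.98 ± 0.38 in WT tumor DNA over WT media (limma adjusted p = 0.000247). Isg20, an RNA exonuclease, rose by 3.91 ± 0.39 (adjusted p = 0.000287), and Eif2ak2, the kinase PKR, by 1.43 ± 0.24 (adjusted p = 0.00237). All 16 were called lower in STING tumor DNA than in WT tumor DNA, beside 9.73% of all genes, with a median of -3.76.

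**Figure D4:**
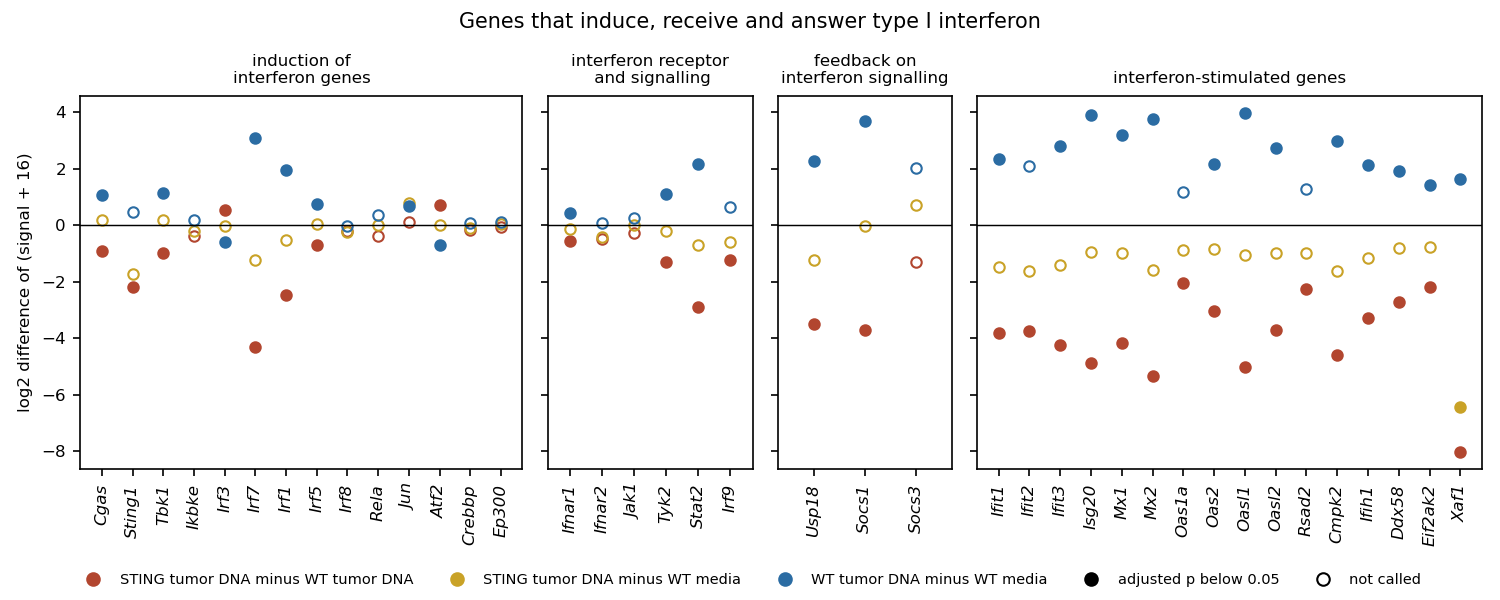
Fitted log2 differences of (signal + 16) for the tested genes of 4 lists, in the 3 comparisons (n = 3 arrays per group), filled where the adjusted p was below 0.05. All 16 interferon-stimulated genes are lower in STING tumor DNA than in WT tumor DNA, and 13 are higher in WT tumor DNA than in WT media. The shares of all genes called so were 9.73% and 9.94%.

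Against WT media, the interferon-stimulated genes of STING tumor DNA cells had a median difference of -1.01, beside -0.01 for all genes tested. Of the 16, 1 was called lower by limma, beside 0.262% of all genes. An unadjusted limma p below 0.05 was found in 8, all of them lower. The share of all genes at that unadjusted level is not given here. The STING tumor DNA arrays disagreed with each other here, since array 1 read highest and array 2 lowest in 16 of 16 genes. Their summed signal was 75400, 10500 and 24500 on STING tumor DNA arrays 1, 2 and 3, against 68200, 49500 and 80800 on WT media arrays. Without STING tumor DNA array 1, 15 genes of the interferon pathway lists were called lower than in WT media, in place of 1. The interferon genes themselves did not show this order. Ifnb1 was lowest on STING tumor DNA array 1 and highest on array 2, within 43.3 to 62.5.

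The single called gene was Xaf1, a pro-apoptotic gene that interferon induces, and its 2 probe sets disagreed. The one used (1443621_at) read 72.4, 46.7 and 72.2 in STING tumor DNA, 21669.8, 21687 and 18819 in WT tumor DNA and 6306, 5202 and 9207 in WT media, a difference of -6.42 ± 0.22 between STING tumor DNA and WT media (limma adjusted p = 9.27e-07). The other (1443698_at) read 3412, 1055 and 1841 in STING tumor DNA, 3010.2, 3494 and 3465 in WT tumor DNA, and 452, 645 and 848 in WT media. With the 2 averaged the difference was -2.43 (adjusted p = 0.00393).

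Likeness to Ifnb1 was measured as the mean absolute difference, over the 6 arrays with DNA, between the log2 values of Ifnb1 and of another gene, each taken relative to its own mean in WT media. By this measure the nearest of all 12586 genes were Ifna2 (0.36), Ifna4 (0.46) and Ifna5 (1.03). Ifna9 (2.0), Ifnab (2.14) and Ifna1 (3.69) were further off. The nearest genes outside the family were Cxcl9 (1.28), Nts (1.65), Pou3f1 (1.70), Hdc (1.78) and Cst7 (1.82). Ifna2, Ifna4, Ifna5, Ifna9, Ifnab, Nts and Pou3f1 passed the filter on low signals only through the WT tumor DNA arrays. For them a rise such as that of Ifnb1 was built into the selection, so the distances and ranks are a description. Cxcl9, a chemokine for T cells that interferons induce, read 198, 9.22 and 77.5 in STING tumor DNA, 27808, 9867 and 12615 in WT tumor DNA, and 615, 97.5 and 122 in WT media. Because WT media is near the floor in several of these genes, the distances depend on the constant added. With 1 and 64, constants tried for this measure after the data had been seen, Cxcl9 stayed the nearest of the 5 (1.62 and 0.82), while with 64 Cst7, Pou3f1, Hdc and Nts ranked 9, 12, 16 and 19 among all genes and Cxcl9 was nearer than Ifna5. As in Ifnb1, WT tumor DNA array 1 was highest and array 2 lowest. Nts, which encodes the peptide neurotensin, read 15.4, 78.9 and 24.3 in STING tumor DNA, 836, 1158 and 472 in WT tumor DNA, and 13.3, 8.48 and 1.99 in WT media, with array 2 the highest of its WT tumor DNA arrays. In WT tumor DNA over WT media the transcription factor gene Pou3f1 rose by 4.61 ± 0.48 (limma adjusted p = 0.000355), Hdc, which encodes the enzyme that makes histamine, by 4.14 ± 0.68 (adjusted p = 0.00212), and Cst7, the protease inhibitor cystatin F, by 3.85 ± 0.42 (adjusted p = 0.000405).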

How the data were processed

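The deposited values are linear signal intensities made by the authors with MAS5, per the submitters' processing notes. MAS5's version was not given in the sources used here, nor was a genome build. The trimmed mean of each array was 500.0, so the arrays had been scaled alike before deposit. Control probe sets were removed, signals were transformed to log2(signal + 16), probe sets above the 40th percentile of the mean over all arrays (5.67) were retained, and each gene was represented by its probe set of highest mean. Probe sets with several symbols or none named no gene. Suffixes in the names of 3 members' probe sets (x_at) mark probes that can also bind related transcripts, so signals of near-identical alpha genes may be shared.

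One linear model over the 9 arrays was fitted with limma 3.58.1 in R 4.3.3 (lmFit and eBayes with an intensity trend), with Benjamini-Hochberg adjustment of the 2-sided p-values over all 12586 genes per comparison. The fit was tested on simulated data. Confidence intervals are 95% intervals of the fit. The number of arrays limits the precision.

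The named genes were all members, in each pathway list the 4 genes with the smallest adjusted p in WT tumor DNA against WT media, Sting1, Cgas, Irf3, Irf7, Ifnar1 and Ifnar2, and the 5 genes most like Ifnb1. Others are named as markers. Members and lists were chosen with earlier results of these data known. Residuals from group means correlated at 0.17 to 0.49 for the 9 same-numbered pairs (II and III in the sample titles are 2 and 3, titles with no numeral are 1) and at -0.42 to 0.14 for the 18 pairs of different numbers, so the numbers were taken to pair the samples. The main fit had no term for the number, so its SE, intervals and p-values ignore this pairing. Only the alternative with a replicate block fitted it. Among the named genes, that block changed calls of Socs3, Ifnar2 and Sting1. Alternatives were other offsets, scalings, filters, probe set rules, variance models, a replicate block and leaving out arrays. Promoters came from RefSeq (GRCm38.p6) and were found for 7 of 7 genes. Pairs were aligned with Biopython (global, match 1, mismatch -1, gap opening -2 and extension -1).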

Additional observations from a re-analysis of the deposited data

Results flagged for a closer look

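Signal appeared in 3 probe sets that are annotated to several interferon alpha genes at once and were therefore left out of the comparisons. In each, the lowest WT tumor DNA signal lay above every WT media signal. Among all genes tested these groups did not overlap, in either direction, in 46.4%. The probe set annotated to 3 genes, 1450593_at, read 1.19, 5.07 and 3.18 in STING tumor DNA, 2977, 152 and 457 in WT tumor DNA, and 21.5, 14.8 and 2.36 in WT media, so its lowest WT tumor DNA signal was 152.2. The 2 probe sets annotated to 9 genes had smaller gaps. In 1422403_at the signals were 22.7, 40.6 and 24.1 in STING tumor DNA, 229, 124 and 107.9 in WT tumor DNA, and 2.83, 50.4 and 28.8 in WT media. In 1422404_x_at they were 24.8, 55.7 and 32.4 in STING tumor DNA, 268, 140.6 and 181 in WT tumor DNA, and 25.9, 36.1 and 43.6 in WT media. WT tumor DNA array 1 read highest in all 3 of these probe sets. Which of the annotated genes gave the signal was not tested.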

How the results depend on the processing

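Across the alternatives that leave out no replicate, 6 of the 7 interferon genes stayed called in WT tumor DNA over WT media and in STING tumor DNA against WT tumor DNA, except with the filter at the 60th percentile, where the count was 1 in both because the other members' mean signals lie below it, and with offset 1, where Ifna9 was not tested. With the replicate block the counts stayed at 6 and 6. Leaving out arrays gave 4 to 6 member calls in both comparisons. The rise of Ifna9 was then 2.53 to 4.53 and that of Ifnab 1.90 to 4.28, while in STING tumor DNA against WT tumor DNA the range was -4.41 to -1.93 for Ifna9 and -4.34 to -1.86 for Ifnab. Ifna1, called in none, was -0.48 to 0.64 in WT tumor DNA over WT media, so its sign changed.

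For pathway genes called lower in WT tumor DNA than in WT media (2), quantile normalization gave 1, median centring 0 and averaged probe sets 1, and leaving out arrays 0 to 2. For those called higher in STING tumor DNA than in WT tumor DNA (2), quantile normalization gave 1, median centring 0 and leaving out arrays 0 to 2. Pathway genes called higher in WT tumor DNA than in WT media (24) ranged from 11 to 29 when arrays were left out, and those called lower in STING tumor DNA than in WT tumor DNA (28) from 17 to 30. Those called lower in STING tumor DNA than in WT media (1) numbered 2, Xaf1 and Sting1, with the replicate block and 1 to 15 when arrays were left out. The causes were not tested. Median centring moved the median of all genes from -0.20 to 0.11 in WT tumor DNA over WT media and from 0.20 to -0.06 in STING tumor DNA against WT tumor DNA. Signals near the floor limit the sizes of the alpha gene differences.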

Other observations

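Markers of mast cells and basophils, a list outside the interferon pathway, shared only part of the pattern of Hdc. Of 5 tested, 4 were called lower in STING tumor DNA than in WT tumor DNA (limma), beside 9.73% of all genes, and 1, Hdc, was called higher in WT tumor DNA than in WT media. The listed markers Fcer1a and Ms4a2 would not have passed the filter on low signals on the STING tumor DNA arrays alone. For them a lower value in STING tumor DNA was favoured by the selection, so this count is a description. Fcer1a, a chain of the IgE receptor, read 14.5, 21.2 and 5.2 in STING tumor DNA, 189, 76.9 and 62.7 in WT tumor DNA, and 136, 75.9 and 49.1 in WT media. Mcpt8, a basophil protease, read 62.6, 44.3 and 69.8 in STING tumor DNA, 528, 141 and 148 in WT tumor DNA, and 351, 100.4 and 79.2 in WT media. In both genes array 1 was the highest of the WT tumor DNA arrays and of the WT media arrays. Hdc itself read 10.5, 58.8 and 63.96 in STING tumor DNA, 2050.0, 803 and 975.1 in WT tumor DNA, and 123, 6.58 and 81.0 in WT media. In STING tumor DNA against WT media the median over the 5 was -1.11, and 0 were called by limma. The shares of all genes were 0.167% higher and 0.262% lower. Fcer1a and Mcpt8 lay below WT media there without overlap, as 13.8% of all genes were apart in either direction. Hdc overlapped (-0.32 ± 0.68, limma adjusted p = 0.977).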
